A study of Mus musculus with 13 samples.

Results

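The genes described here are 7 enzymes of cholesterol synthesis, Hmgcs1, Idi1, Fdps, Sqle, Lss, Cyp51 and Dhcr7, measured in lung RNA. They are the rows of the deposited gene tables that carry these 7 symbols, of 20270 genes listed, and all 7 were among the 15315 genes with enough counts to test. The libraries came from the lower right lung lobe of mice on a C57BL/6J background. The methods of the study describe the purchased C57BL/6J mice as 13-week-old males. They state neither age nor sex for the mice with the deletion. The 4 control mice (numbers 3, 21, 24 and 26 in their labels) are labelled wt, wildtype, and per the methods of the study controls received sterile saline. The 5 WT bleomycin mice (4, 2, 5, 4-B2 and 7) were wildtype and were examined 14 days after a single dose of bleomycin (1 U per kg) given by oropharyngeal aspiration. The 4 mice labelled CB1R KO (8, 9, 10 and 11) carry a germline deletion in Cnr1, the gene of the cannabinoid receptor CB1R, in all cells, and had received the same dose. Bleomycin is a DNA-damaging drug that is instilled into mouse lungs as a model of pulmonary fibrosis. No group with the deletion and without the drug is part of these data as analysed here, so the difference between CB1R KO bleomycin and control lungs holds the drug and the deletion together and the contributions cannot be told apart.

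Cholesterol is built from acetyl-CoA. In the mevalonate arm, Hmgcs1 works before mevalonate is formed, and Idi1 and Fdps work on the isoprenoid units that lead to farnesyl diphosphate. Squalene is then made, oxidised by Sqle and closed by Lss into lanosterol, the first sterol. Cyp51 removes a methyl group from lanosterol, and Dhcr7 carries out a last reduction to cholesterol. The genes are classical targets of the transcription factor SREBP2 (Srebf2), which is released from the endoplasmic reticulum when sterols are scarce and is held back there by Insig1 when they are plentiful. In the lung, cholesterol is a component of the surfactant that type II cells secrete, and alveolar macrophages take surfactant lipid up.

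Because the 7 genes are known as targets of 1 factor, the sequences before their start sites are shown first. RefSeq (GRCm38.p6) gave windows for 5 of the 7 genes, all except Sqle and Fdps. Shown here are the windows of Hmgcs1, the gene with the largest difference between CB1R KO and WT bleomycin lungs, of Cyp51, the one that rose in WT bleomycin lungs, and of Lss, whose differences were no larger than 0.07 on the log2 scale. Each stretch reads 5′ to 3′ on the strand of the gene and stops at the start site or at the first base of an annotated exon. Capitals mark matches on either strand to TCACNCCAC (the core of the sterol regulatory element that SREBP binds), CCAAT (the NF-Y box), GGGCGG (the Sp1 box) or CACGTG (an E-box).
Hmgcs1, chr13:119690101-119690350, plus strand: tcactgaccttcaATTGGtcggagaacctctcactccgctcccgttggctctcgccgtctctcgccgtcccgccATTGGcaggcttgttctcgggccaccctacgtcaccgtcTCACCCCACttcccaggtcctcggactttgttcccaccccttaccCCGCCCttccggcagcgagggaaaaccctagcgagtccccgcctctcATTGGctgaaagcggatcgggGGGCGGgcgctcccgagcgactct
Cyp51, chr5:4104747-4104947, minus strand: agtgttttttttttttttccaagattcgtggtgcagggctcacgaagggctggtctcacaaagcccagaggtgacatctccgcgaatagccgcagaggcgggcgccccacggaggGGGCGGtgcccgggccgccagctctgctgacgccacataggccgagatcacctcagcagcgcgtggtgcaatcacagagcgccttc
Lss, chr10:76531355-76531587, plus strand: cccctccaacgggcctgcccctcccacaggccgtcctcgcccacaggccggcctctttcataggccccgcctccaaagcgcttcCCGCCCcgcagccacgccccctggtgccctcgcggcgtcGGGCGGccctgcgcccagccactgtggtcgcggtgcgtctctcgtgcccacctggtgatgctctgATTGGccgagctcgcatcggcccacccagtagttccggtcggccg
TCACNCCAC occurred in the 250 bases before the start of Hmgcs1, 137 bases upstream, and in no other window of the 16 synthesis genes with a window, against 1.05% of all 32851 promoter windows. CCAAT occurred before at least 1 start of 15 of these 16 genes, the 5 members included, and in 33.8% of all windows. In Cyp51 the CCAAT match begins 29 bases before the start, within an exon of another transcript model and so outside the stretch shown. GGGCGG was found before 15 of the 16 genes (32.7% of all windows) and CACGTG before 3 (6.02%). These counts are per gene, and Dhcr7 and Pmvk have several windows, so they are not on the same footing as the shares of windows. These are matches of letters in a short window, and none of the data here measured binding.

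The deposited values were Kallisto estimated counts and TPM summed per gene. TPM is scaled for transcript length and library total and was used to compare levels between genes, and counts scaled to library size with TMM factors (normalised CPM) were used for each gene across libraries. Of the 13 libraries, 12 held 14615904 to 16662580 estimated counts, and CB1R KO replicate 11 stood apart with 53463884, or 3.33 times their median. Cnr1 was not lost from the libraries labelled CB1R KO: its normalised CPM was 5.63 in replicate 8, 2.47 in 9, 4.60 in 10 and 3.47 in 11, against 3.46 to 6.97 in WT bleomycin and 1.62 to 4.10 in control libraries. Set against WT bleomycin, it was at -0.53 in libraries labelled CB1R KO on the log2 scale (SE 0.28, edgeR's quasi-likelihood test, Benjamini-Hochberg adjusted p = 0.367). The part of Cnr1 that the deletion removes is not given in the sources used here, so these counts do not check the labels, and every statement on CB1R KO below refers to libraries labelled so. The labels of control 26, WT 4-B2 and WT 7 are written with capitals and those of the other 10 libraries in lower case, and no CB1R KO label has capitals. What the style of a label stands for is not stated. Because members were low in the libraries with capitals, the values within the lower-case libraries stand beside the results they touch.

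On the TPM scale the 7 genes lay in a stable order of level. Fdps was the highest, with 57.9 to 84.6 TPM over the 13 libraries, followed by Hmgcs1 with 38.6 to 77.0 TPM. Fdps exceeded Hmgcs1 in 12 of 13 libraries, at 0.895 to 1.56 times its level, so these neighbours in the order were not separated beyond their spread. Idi1 (27.3 to 42.0 TPM), Sqle (21.4 to 37.5), Cyp51 (12.5 to 28.5), Dhcr7 (9.71 to 19.0) and Lss (5.39 to 7.52) followed, and each exceeded the next in 13 of 13 libraries. The closest of these pairs within 1 library were Cyp51 and Dhcr7, at 1.05 times, and Idi1 and Sqle, at 1.06 times. Summed over the 7 genes, TPM was 208 ± 21.9 (SD, n = 4) in control, 239 ± 29.1 (n = 5) in WT bleomycin and 268 ± 19.5 (n = 4) in CB1R KO bleomycin libraries, and the ranges of neighbouring groups overlapped. In the transcripts of another annotation (GENCODE vM21), 67.5% of the 31-base words of Fdps and 30.5% of those of Idi1 also occurred in transcripts of other genes, against 13.7% or less in the other 5, so the level of Fdps is the least certain.

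The first comparison asked what bleomycin changed in wildtype lungs. Cyp51, the demethylase of lanosterol, rose in WT bleomycin lungs to 1.59 times the control level, and the other 6 genes did not pass the test. Control libraries 3, 21, 24 and 26 held 35.4, 36.2, 38.9 and 34.3 normalised CPM of Cyp51. In WT bleomycin libraries 4, 2, 5, 4-B2 and 7 it was at 56.1, 61.4, 59.4, 59.2 and 51.9. No WT bleomycin library reached down to the control range, those with capitals included. The log2 fold change was 0.67 (SE 0.08, edgeR's quasi-likelihood test, Benjamini-Hochberg adjusted p = 1.73e-05), and it was 0.68 within the lower-case libraries. Over all genes tested, 25% were higher and 23.9% lower at the same threshold, and 21.5% were without overlap and higher in WT bleomycin, so 1 member of 7 called higher and 2 of 7 without overlap lay near that background. In these bulk tissue libraries, a change in the number of cells that express a gene and a change in its RNA per cell cannot be told apart.

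Sqle, the epoxidase that oxidises squalene and a rate-limiting enzyme of the pathway, was the other member whose groups did not overlap. It held 47.0, 47.4, 48.9 and 40.3 normalised CPM in control libraries 3, 21, 24 and 26. In WT bleomycin libraries 4, 2, 5, 4-B2 and 7 it was at 52.1, 53.9, 56.3, 51.8 and 49. The lowest WT bleomycin library was just above the highest control library. The log2 fold change of 0.20 (SE 0.08) did not pass the threshold (edgeR's quasi-likelihood test, Benjamini-Hochberg adjusted p = 0.0648), and it passed in 4 of 25 alternatives, among them the fit of only these 2 groups (adjusted p = 0.0356 by the same test). It was at 0.18 within the lower-case libraries (adjusted p = 0.162) and at 0.13 without control 26 (adjusted p = 0.221), both by the same test.

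Hmgcs1, the synthase of the mevalonate arm, held 121, 115, 115 and 85.2 normalised CPM in control libraries 3, 21, 24 and 26. It held 142, 133, 125, 106 and 115 in WT bleomycin libraries 4, 2, 5, 4-B2 and 7. The groups overlapped, and the lowest value of each group was in a library with a capitalised label. Dhcr7, the last reductase, held 19.97, 19.7, 17.6 and 15.1 normalised CPM in the same control libraries and 21.7, 24.0, 24.4, 17.7 and 17.8 in the WT bleomycin libraries. Here too the capitalised libraries were the lowest of their groups. The log2 fold changes were 0.19 for Hmgcs1 (SE 0.10, edgeR's quasi-likelihood test, Benjamini-Hochberg adjusted p = 0.141) and 0.23 for Dhcr7 (SE 0.12, adjusted p = 0.127 by the same test). With label style as a term of the same model they were 0.24 and 0.28 and passed (adjusted p = 0.00522 and 0.00881 by the same test), and within the lower-case libraries Dhcr7 passed (0.30, adjusted p = 0.0303) and Hmgcs1 (0.19) did not. Without control 26 the values were 0.08 for Hmgcs1 and 0.14 for Dhcr7 (adjusted p = 0.48 and 0.36 by the same test).

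Idi1, Fdps and Lss showed no difference that the test could separate. Idi1, the isomerase of isopentenyl diphosphate, held 56.9 to 76.0 normalised CPM in control and 59.0 to 70.8 in WT bleomycin libraries, with a log2 fold change of 0.01 and a 95% interval from -0.19 to 0.20. Fdps, the farnesyl diphosphate synthase, held 45.9 to 50.8 and 42.9 to 59.0, with 0.08 (-0.11 to 0.27). Lss, the cyclase that makes lanosterol, held 16.1 to 22.5 and 17.5 to 20.8, with -0.01 (-0.21 to 0.20). The groups overlapped for each of these genes, and the signs of Idi1 and Lss changed under some alternatives.

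**Figure D1:**
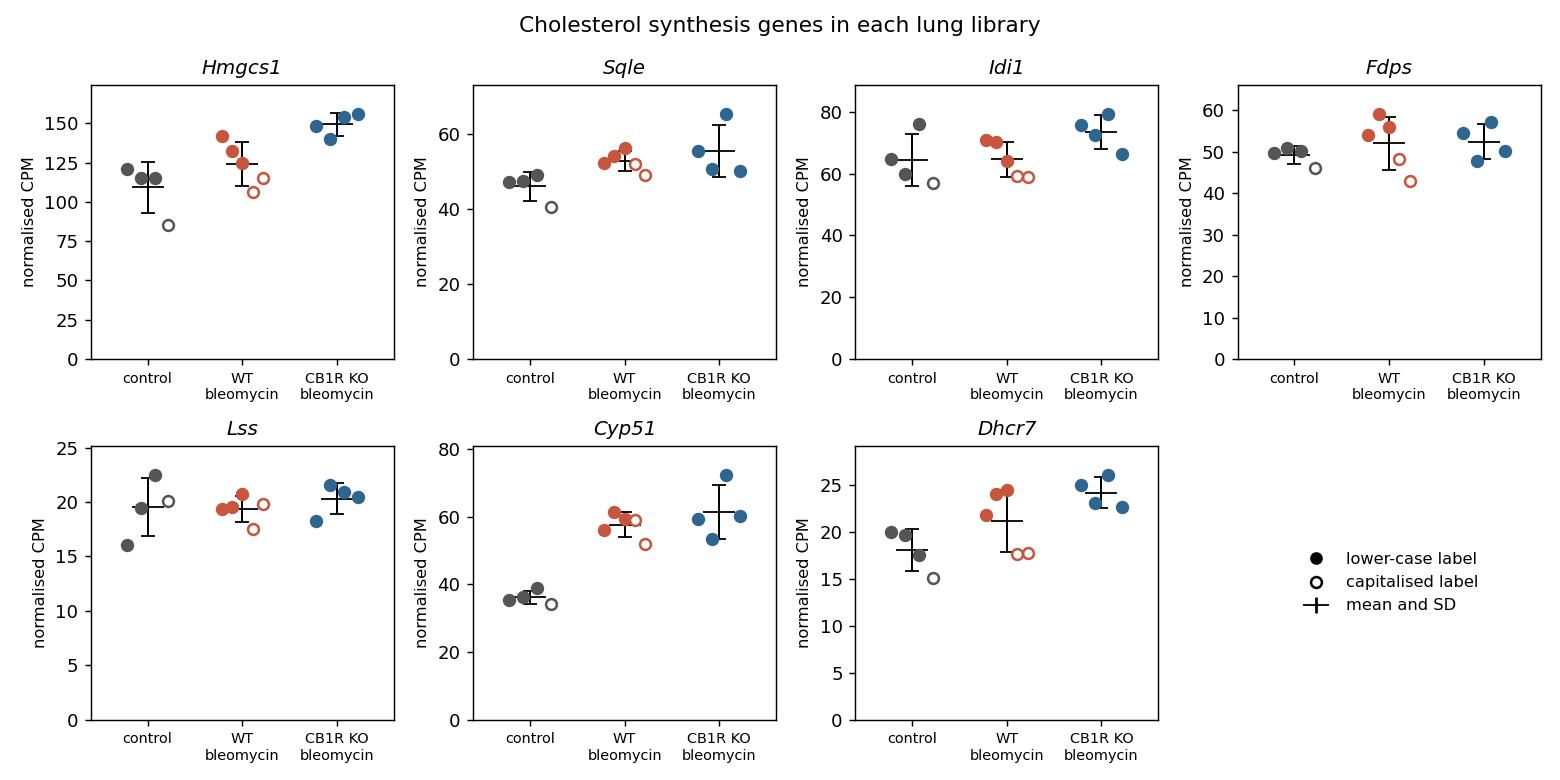
Counts scaled to library size (normalised CPM, vertical axis from 0) of the 7 genes in each library of the control, WT bleomycin and CB1R KO bleomycin groups, with the mean and SD of each group; open circles are libraries with capitalised labels. Cyp51 lies at 34.3 to 38.9 in control and 51.9 to 72.3 in the bleomycin groups, while Lss and Fdps overlap in all groups.

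The second comparison asked what the CB1R deletion changed in lungs given bleomycin. None of the 7 genes passed the test (edgeR's quasi-likelihood test, and 0 by DESeq2), although all 7 log2 fold changes were positive, from 0.01 to 0.27. Over all genes tested, 0.359% were called higher and 0.62% lower, and 2.5% were higher without overlap between the groups, which held for 0 of the 7. At an unadjusted p under 0.05, 1 of 7 members was higher, as were 7.95% of all genes.

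That member was Hmgcs1. Its normalised CPM was 148 in CB1R KO replicate 8, 140 in 9, 154 in 10 and 156 in 11, against 106 to 142 in WT bleomycin. Replicate 9 lay within the WT bleomycin range and the other 3 above it. The log2 fold change was 0.27 (SE 0.10, 95% interval 0.05 to 0.48, edgeR's quasi-likelihood test, Benjamini-Hochberg adjusted p = 0.194). It was 0.17 within the lower-case libraries, where the WT bleomycin group keeps 3 mice, and 0.14 with label style as a term. Label style and genotype cannot be fully told apart here, since no capitalised library is labelled CB1R KO.

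Dhcr7 held 25.0, 23.0, 26.0 and 22.6 normalised CPM in CB1R KO replicates 8, 9, 10 and 11, against 17.7 to 24.4 in WT bleomycin. Idi1 held 75.7, 72.4, 79.2 and 66.2, against 59.0 to 70.8. Both overlapped the WT bleomycin libraries. The log2 fold changes were 0.19 for Dhcr7 (SE 0.12, edgeR's quasi-likelihood test, Benjamini-Hochberg adjusted p = 0.421) and 0.18 for Idi1 (SE 0.09, adjusted p = 0.322 by the same test). Within the lower-case libraries they were 0.04 and 0.10.

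Cyp51, Sqle, Lss and Fdps differed least. Cyp51 held 59.5, 53.4, 72.3 and 60.3 normalised CPM in CB1R KO replicates 8, 9, 10 and 11, with a log2 fold change of 0.09 (95% interval -0.08 to 0.27) against WT bleomycin. Sqle held 55.3, 50.7, 65.1 and 50.1 in the same libraries, with 0.07 (-0.11 to 0.25). For both genes replicate 10 was above every WT bleomycin library and the other 3 were within their range. Lss held 18.3 to 21.6 normalised CPM, with 0.07 (-0.14 to 0.27), and Fdps held 47.8 to 57.1, with 0.01 (-0.18 to 0.20). The sign for Fdps turned to -0.11 within the lower-case libraries and to -0.08 with label style as a term.

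**Figure D2:**
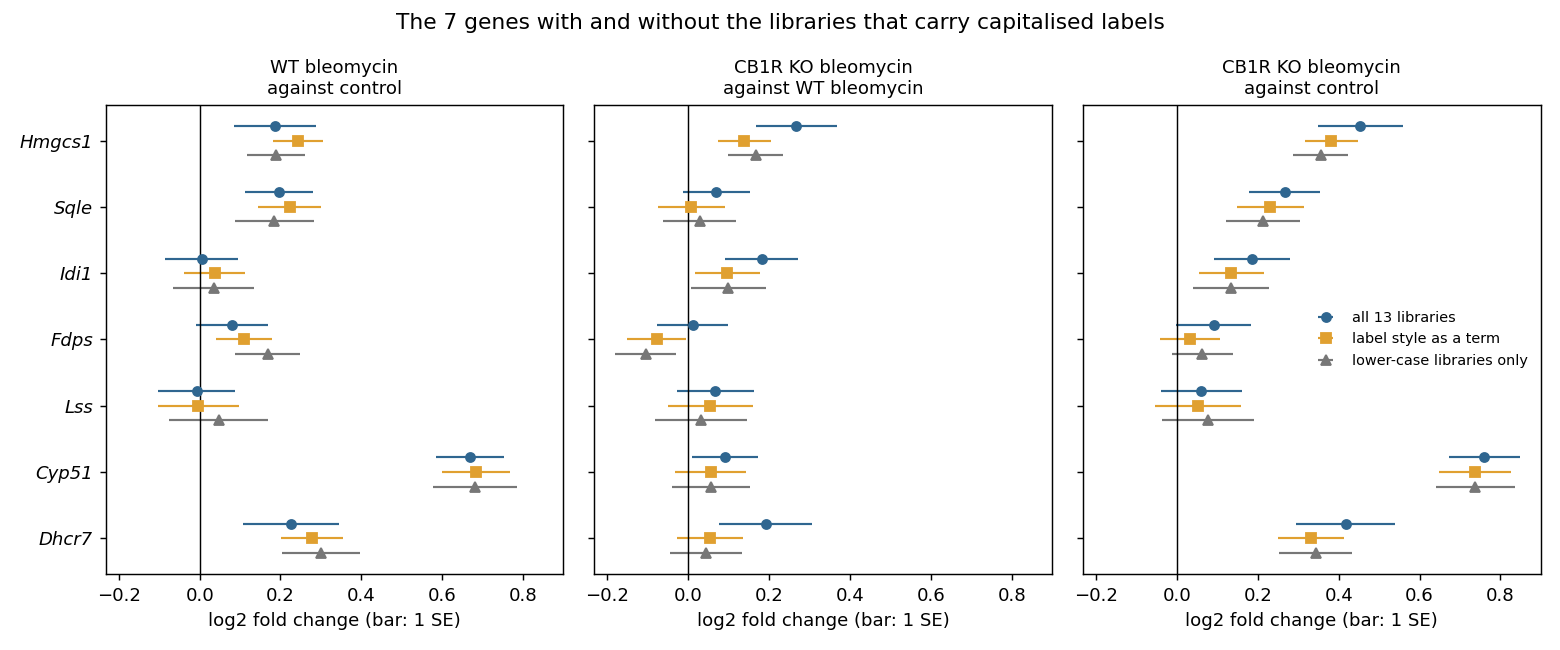
Log2 fold changes of the 7 genes (horizontal axis, bars are 1 SE) in the 3 comparisons, fitted on all 13 libraries (circles), with label style as a term (squares) and on the lower-case libraries alone (triangles). For CB1R KO against WT bleomycin, Hmgcs1 moves from 0.27 to 0.14 and 0.17 and Dhcr7 from 0.19 to 0.05 and 0.04, while Cyp51 against control stays at 0.67 to 0.68 in WT bleomycin lungs.

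Label style moved with the members as a group. In the model with label style as a term, all 7 genes were lower in the capitalised libraries, with a median of -0.22 on the log2 scale against 0.00 over all genes. Among the 7, the largest differences were those of Dhcr7, -0.38 (SE 0.08), and Hmgcs1, -0.34 (SE 0.07). None passed the threshold (edgeR's quasi-likelihood test, Benjamini-Hochberg adjusted p = 0.181 for Dhcr7 and 0.113 for Hmgcs1), and 0.0196% of all genes were called lower. Of 20 synthesis genes, 15 were lower in the capitalised libraries, the 7 members included. The largest difference of the 20 went the other way. It was that of Pmvk, a gene of the mevalonate arm, higher by 0.49 (SE 0.18) and not past the threshold. Pmvk stands outside the rule for named genes. In each of control 26, WT 4-B2 and WT 7, 6 of the 7 members were below the mean of their group. This count was not particular to them: it was 6 in CB1R KO replicate 9 and 5 in replicate 11, both with lower-case labels. The mean log2 deviation of the members was -0.152, -0.115 and -0.135 in the capitalised libraries, and -0.075 and -0.053 in these CB1R KO replicates. The part of label style in the comparisons was not tested beyond these values.

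The third comparison set the libraries labelled CB1R KO beside control. It shares the control libraries with the first comparison and the CB1R KO libraries with the second. Of the 7 genes, 4 were higher, against 19% of all genes higher and 16.3% lower. The same 4 had every CB1R KO library above every control library, which held for 17.7% of all genes. Cyp51 rose by 0.76 on the log2 scale (SE 0.09, edgeR's quasi-likelihood test, Benjamini-Hochberg adjusted p = 2.19e-05), to 1.69 times the control level. Hmgcs1 rose by 0.45 (SE 0.11, adjusted p = 0.00434 by the same test), with 140 to 156 normalised CPM against 85.2 to 121. Dhcr7 rose by 0.42 (SE 0.12, adjusted p = 0.0164) and Sqle by 0.27 (SE 0.09, adjusted p = 0.029), both by the same test. Idi1 at 0.19 (95% interval -0.02 to 0.39), Fdps at 0.09 (-0.11 to 0.29) and Lss at 0.06 (-0.15 to 0.27) did not pass. Without control 26 the calls of Dhcr7 and Sqle were lost, at 0.34 and 0.21 with adjusted p = 0.0556 and 0.0942 (edgeR's quasi-likelihood test). The call of Dhcr7 held within the lower-case libraries, which also lack control 26 (0.34, adjusted p = 0.0151 by the same test). It held with label style as a term too (0.33, adjusted p = 0.00692 by the same test). The call of Sqle was also lost without CB1R KO replicate 10 (0.18, adjusted p = 0.0934) and within the lower-case libraries (0.21, adjusted p = 0.102), and with only these 2 groups fitted by edgeR (adjusted p = 0.06) or DESeq2 (adjusted p = 0.0564).

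A gene past the threshold in the third comparison and not in the first is not thereby shown to differ between genotypes. That difference is the second comparison, in which no member passed. Hmgcs1, for which the mean of WT bleomycin lay between the means of control and CB1R KO although libraries of WT bleomycin overlapped both groups, was at 0.19 and 0.45 against control and at 0.27 between the bleomycin groups.

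Of 20 synthesis genes listed, 5 were higher and 3 lower in WT bleomycin than in control lungs, shares no larger than the 25% and 23.9% of all genes, with a median of 0.09 on the log2 scale against -0.01 over all genes tested. The 8 calls became 5 without control 3, without control 24 or without WT 5. In the mevalonate arm, Mvd, the mevalonate diphosphate decarboxylase, rose from 13.2 to 15.1 normalised CPM in control to 23.5 to 28.0 in WT bleomycin libraries (log2 fold change 0.84, SE 0.08, edgeR's quasi-likelihood test, Benjamini-Hochberg adjusted p = 9.10e-07). Acat2, the acetyl-CoA acetyltransferase at the start of the pathway, fell by 0.24 (SE 0.07, adjusted p = 0.0137).

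Beyond lanosterol, Hsd17b7, the sterol ketoreductase, rose by 0.84 (SE 0.11, edgeR's quasi-likelihood test, Benjamini-Hochberg adjusted p = 3.33e-05), beside Cyp51 at 0.67. Its libraries did not overlap, at 14.4 to 17.8 normalised CPM in control and 25.8 to 32.3 in WT bleomycin. Lbr, the lamin B receptor that also has sterol reductase activity, fell by 0.47 (SE 0.09, adjusted p = 3.87e-04 by the same test), from 82.4 to 100.7 normalised CPM in control to 58.9 to 80.1. Ebp and Tm7sf2 were the other genes called higher and Sc5d the other called lower, at 0.27, 0.34 and -0.29; these 3 stand outside the rule for named genes and are named to complete the count. Between CB1R KO and WT bleomycin lungs, 0 of the 20 passed, 14 differences were positive and 6 negative, and the median was 0.07 against 0.00 over all genes. Mvd and Hsd17b7 were among the negative ones, at -0.15 (95% interval -0.30 to 0.01) and -0.19 (-0.42 to 0.05). Against control, 7 of the 20 were higher in CB1R KO lungs and 1, Lbr, was lower, beside 19% higher and 16.3% lower over all genes.

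**Figure D3:**
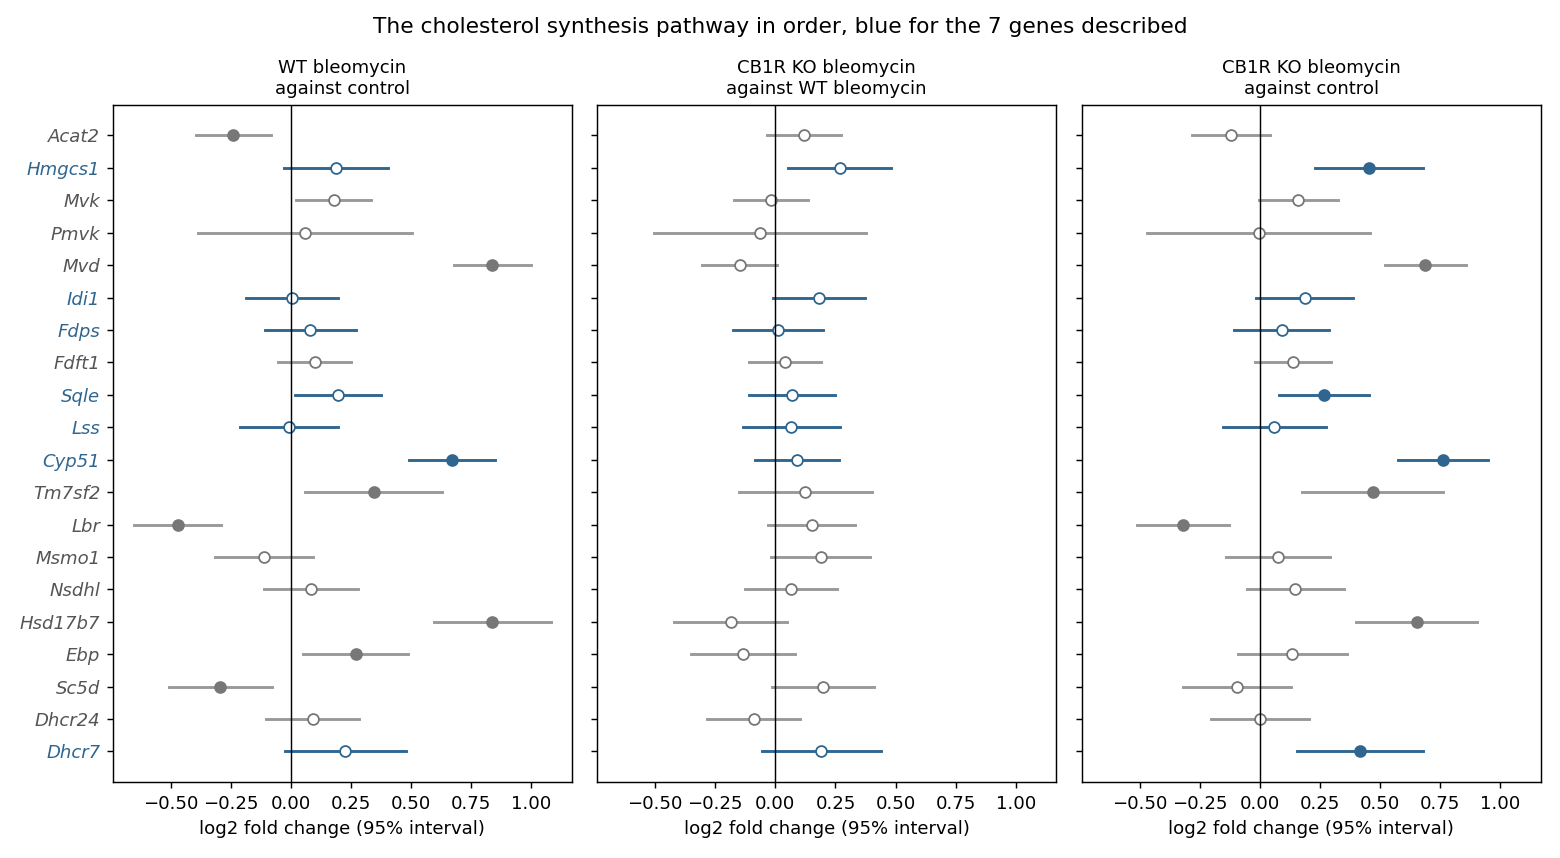
Log2 fold change (horizontal axis) with its 95% interval for 20 synthesis genes in pathway order, from acetyl-CoA at the top to cholesterol at the bottom, in the 3 comparisons; the 7 genes described are blue and filled circles passed the test. In WT bleomycin against control, 5 genes are called higher, Mvd and Hsd17b7 at 0.84 each, and 3 lower, and in CB1R KO against WT bleomycin no circle is filled.

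Among the regulators, Insig1, Srebf2 and Srebf1 fell in WT bleomycin lungs. Insig1, which retains SREBP in the endoplasmic reticulum and is itself an SREBP target, held 114, 94.2, 81.1 and 76.1 normalised CPM in control libraries 3, 21, 24 and 26 and 57.7 to 65.4 in WT bleomycin libraries. All WT bleomycin libraries lay below all control libraries, and Insig1 fell by 0.58 on the log2 scale (SE 0.10, edgeR's quasi-likelihood test, Benjamini-Hochberg adjusted p = 1.93e-04). Srebf2, the gene of SREBP2, fell by 0.28 (SE 0.07, adjusted p = 0.00467 by the same test), from 193 to 231 normalised CPM to 158 to 186. Srebf1 fell by 0.19 (SE 0.06, adjusted p = 0.0141), a call that was lost within the lower-case libraries (-0.13, adjusted p = 0.197). Of 7 genes of the SREBP machinery, 0 were higher and 3 lower, and of 4 tested SREBP2 targets outside synthesis, 0 were higher and 1 (Insig1) lower, beside 25% higher and 23.9% lower over all genes.

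In the libraries labelled CB1R KO, Insig1 held 77.5, 81.6, 77.2 and 70.5 normalised CPM, each above every WT bleomycin library. The difference of 0.33 (SE 0.10) did not pass the threshold (edgeR's quasi-likelihood test, Benjamini-Hochberg adjusted p = 0.112), and it passed in 3 of 25 alternatives, the 2-group fits of edgeR (adjusted p = 0.0448) and DESeq2 (adjusted p = 5.54e-04) and the fit without control 3 (adjusted p = 0.0439). Within the lower-case libraries it was at 0.29 (adjusted p = 0.354, edgeR's quasi-likelihood test). Srebf2 was at 0.05 and Srebf1 at 0.05, neither past the threshold. Of 62 tested pathway genes outside synthesis, 1 passed in this comparison, Vldlr, a lipoprotein receptor. It held 40.9, 35.6, 36.8, 34.9 and 41.9 normalised CPM in WT bleomycin libraries 4, 2, 5, 4-B2 and 7, and 55.8, 57.6, 42.3 and 52.6 in CB1R KO replicates 8, 9, 10 and 11. The groups did not overlap, with CB1R KO replicate 10 just above the WT bleomycin range. The log2 fold change was 0.45 (SE 0.10, edgeR's quasi-likelihood test, Benjamini-Hochberg adjusted p = 0.048), and in 14 of 25 alternatives, the lower-case libraries included (0.46, adjusted p = 0.228), the call was lost. In WT bleomycin lungs Vldlr was lower than in control by -0.78 (SE 0.10, adjusted p = 2.14e-05 by the same test).

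**Figure D4:**
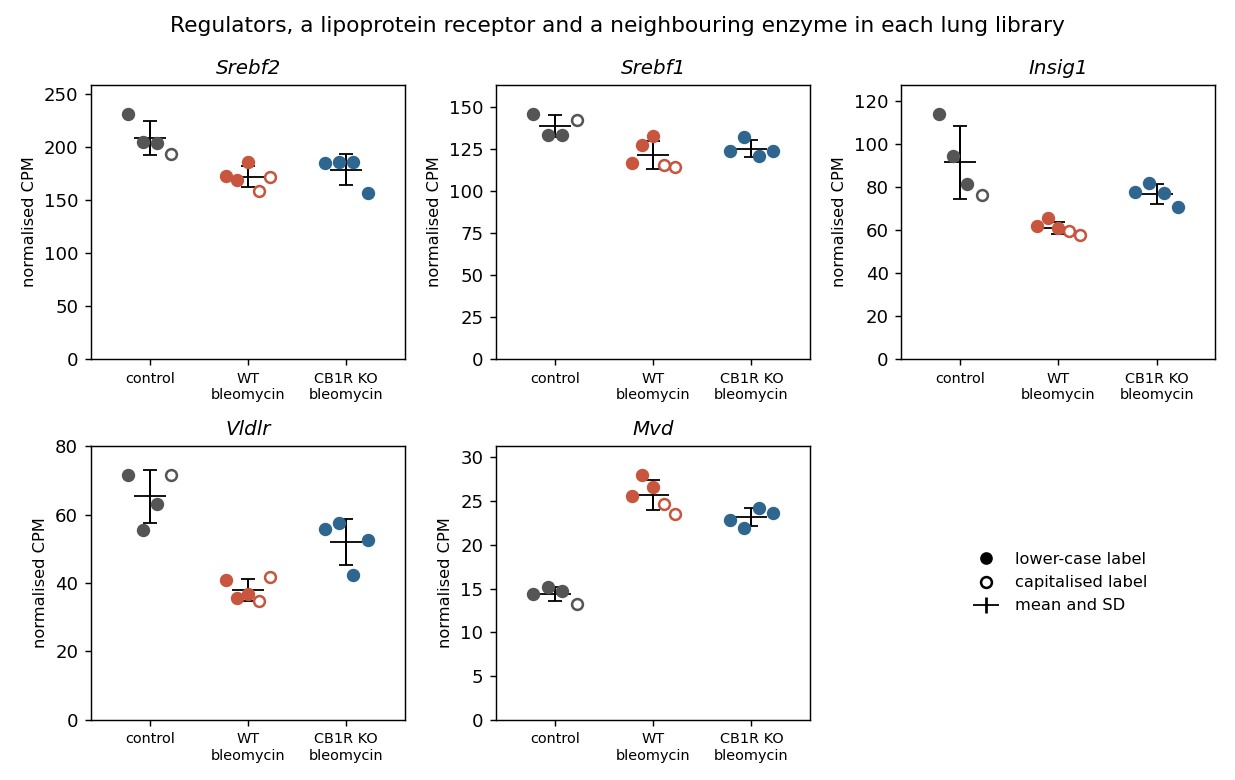
Normalised CPM (vertical axis from 0) of the regulators Srebf2, Srebf1 and Insig1, the enzyme Mvd and the receptor Vldlr in each library, with the mean and SD of each group; open circles are libraries with capitalised labels. Insig1 is at 57.7 to 65.4 in all WT bleomycin libraries and at 70.5 to 81.6 in those labelled CB1R KO.

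In the lists for cholesterol handling outside synthesis, 19 of 62 tested genes were higher and 15 lower in WT bleomycin than in control lungs, near the shares over all genes of 25% higher and 23.9% lower, against which the counts of the single lists are to be read too. Among uptake genes, 4 of 6 were higher and 2 lower. Msr1, a macrophage scavenger receptor, rose by 3.10 on the log2 scale (SE 0.21, edgeR's quasi-likelihood test, Benjamini-Hochberg adjusted p = 9.02e-08) and Scarb1, a receptor for high-density lipoprotein, by 1.21 (SE 0.14, adjusted p = 1.15e-05). Of the 7 tested genes of LXR and efflux, 3 were higher and 3 lower: Apoe, an apolipoprotein, rose by 1.57, Lpcat3, a phospholipid acyltransferase, by 0.71, and Mylip, a ubiquitin ligase, fell by 0.60. Of 6 genes of oxysterol and sterol catabolism, 3 were higher and 2 lower. Ch25h, the cholesterol hydroxylase that makes an oxysterol, rose by 2.21, Cyp7b1 rose by 2.15 and Cyp27a1, another sterol hydroxylase, fell by 0.84.

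Of 6 genes of esterification and ester hydrolysis, 3 were higher and 0 lower, with Lipa, the lysosomal acid lipase, at 0.92, Lcat, which esterifies cholesterol in lipoproteins, at 0.75, and Nceh1, a cholesteryl ester hydrolase, at 0.30. Lcat is outside the rule for named genes and is given to complete the count. Of 8 genes of intracellular transport, 2 were higher and 2 lower, and Npc2, which hands cholesterol out of the lysosome, rose by 0.71. Of 10 genes of the fatty acid arm of SREBP1, 3 were higher and 3 lower, with Scd1, the stearoyl-CoA desaturase, at 1.21, Fads2 at 0.52 and Acss2, which makes acetyl-CoA from acetate, at -0.85. Of 9 genes of the isoprenoid branches that leave the pathway after Fdps, 1, Nus1, was higher, at 0.50, and 0 were lower. In CB1R KO against WT bleomycin lungs, 0 genes of these lists other than Vldlr passed. In the fatty acid arm 9 of 10 differences in that comparison were positive, with a median of 0.30 against 0.00 over all genes, and 0 passed. Of the adipocyte markers, 5 of 5 tested were positive in the same comparison with a median of 1.44 and 0 passed, and their summed TPM was 84.9 to 328 in control, 52.4 to 196 in WT bleomycin and 90.6 to 385 in CB1R KO libraries. Their part in these differences was not tested.

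Markers of several cell types moved with the groups, and their part in the results above was not tested. The libraries carried the markers of lung throughout, and no marker was at 0 in all libraries of a group. Of 8 markers of type II cells, 6 were lower in WT bleomycin than in control lungs, and 3 were higher in CB1R KO than in WT bleomycin lungs, with summed TPM of 32150 to 37570 in control, 19310 to 23040 in WT bleomycin and 24080 to 37710 in CB1R KO libraries. The low end of the last range is replicate 10 alone, with the other 3 at 33520 to 37710. Replicate 10 was also the lowest of its group in summed TPM of type I markers (3427 against 4504 to 4751). The same held for markers of endothelial cells (1481), lipofibroblasts (1195) and T and NK cells (68.83). For fibroblasts (2248), monocyte-derived macrophages (2434) and alveolar macrophages (1465) replicate 10 had the highest sum of its group. It was the highest of its group for Sqle, Idi1, Fdps, Cyp51 and Dhcr7, and 0 of the 7 members were below the group mean in it. Of 6 markers of lipofibroblasts, 5 were lower and 1 higher in WT bleomycin lungs, with sums of 3645 to 4348, 915 to 1302 and 1195 to 2360 TPM. Calls between CB1R KO and WT bleomycin lungs were not particular to type II cells. Higher in CB1R KO were also 1 of these 6 markers, 2 of 6 of T and NK cells and 1 of 6 of endothelial cells, beside 0.359% of all genes. All 6 markers of monocyte-derived macrophages were higher with bleomycin, with sums of 195 to 269, 2353 to 2826 and 1567 to 2434 TPM. All 6 markers of dividing cells were also higher, and in neither list did any marker pass between CB1R KO and WT bleomycin. For alveolar macrophages, 2 of 6 markers were lower in WT bleomycin than in control lungs, and the sums overlapped in all groups. The marker counts for WT bleomycin against control are to be read beside 25% of all genes higher and 23.9% lower. The 2 of 6 for alveolar macrophages lay near that share.

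Within groups, the members varied together to some extent. After group means were subtracted, log2 CPM of 19 of the 21 pairs of members was positively correlated over the 13 libraries. Pearson r was from -0.08 to 0.86 over the 21 pairs, with a median of 0.56. The libraries differ in total and in label style, which all genes of a library have in common, and their part was not tested. The 5 genes outside the pathway lists most like the mean of the members, of 10616 genes with at least 10 CPM, were Hltf (r = 0.90), Mdc1 (0.89), Mrpl35 (0.89), Upp1 (0.89) and Rnf213 (0.88). Among pathway genes, Mvd had an r of 0.87 and Msmo1 0.79. Mvd was at rank 9 among all genes with at least 10 CPM, the members and pathway lists included. These values describe likeness over 13 libraries, and the capitalised libraries contribute to each.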

How the data were processed

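Lung RNA of 13 mice was analysed, grouped by the treatment labels into control (n = 4), WT bleomycin (n = 5) and CB1R KO bleomycin (n = 4). The authors quantified paired-end reads with Kallisto on GRCm39 (Ensembl release 105, version of Kallisto not given in the sources used here) and deposited estimated counts and TPM summed per gene over protein-coding transcripts. The deposited estimated counts were not normalised, and 70.5% of the values were not whole. The deposited TPM values were scaled for transcript length and library total by the authors. The TPM table has 1 column of per-sample values that matches no sample, which was not used.

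Estimated counts were rounded and filtered with filterByExpr (minimum count 10), and library sizes were scaled by TMM. All 13 libraries were fitted at once in edgeR 4.0.16 under R 4.3.3, with the 3 groups as the only terms, and 15315 of 20270 genes were tested by quasi-likelihood F-tests at a Benjamini-Hochberg adjusted p of 0.05 over all of them. The SE of a log2 fold change was derived from the F statistic. Alternatives were other filters and normalisations, DESeq2 1.42.0, limma 3.58.1 on log2(TPM + 1) and log2(TPM + 0.1), 2-group fits, label style as a term, lower-case libraries only, CB1R KO replicate 11 thinned, and each library left out in turn. The procedure was tested on simulated data. Python 3.11.15 with matplotlib 3.10.9 drew the plots.

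The members and gene lists were chosen with earlier results of these data known, so no p-value is given for a list. Genes named were the 7 members, every pathway gene past the threshold between CB1R KO and WT bleomycin, at most the 3 of each list with the lowest p for WT bleomycin against control, Srebf1, Srebf2, Insig1, Cnr1 and the 5 genes most like the members. Of the genes this rule selects, 2 are not reported here and were left out of the lists. Promoter windows came from RefSeq (GRCm38.p6), and shared words of 31 bases were counted in GENCODE vM21 transcripts. Each library was taken as 1 mouse. The labels of WT 4 and WT 4-B2 share a number and do not explain B2, and they were counted as 2 mice because a supplementary table of the study lists them apart with different lung function. Library totals were 14615904 to 53463884 estimated counts. Groups of 4 or 5 mice limit precision, and the SE of a member's log2 fold change was 0.08 to 0.12. The part of sequencing depth in that SE was not tested.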

Additional observations from a re-analysis of the deposited data

Results flagged for a closer look

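The lowest control library for Hmgcs1, replicate 26, held 85.24 normalised CPM, against 115 to 120.9 in the other 3 control libraries, a gap large for the range of the group. This is the control library with a capitalised label. Without it, the log2 fold change of Hmgcs1 against control was 0.08 in WT bleomycin and 0.35 in CB1R KO lungs.

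For Srebf2, CB1R KO replicate 11 held 156.5 normalised CPM, against 184.6 to 186.2 in the other 3 libraries labelled CB1R KO. It is the library with by far the most reads, 53463884 estimated counts against 15252571 to 16605421 in the others of its group. Without it, Srebf2 was at -0.16 against control and no longer past the threshold (edgeR's quasi-likelihood test, adjusted p = 0.0971). That call was lost in 6 of 25 alternatives, also without control 3 (-0.17, adjusted p = 0.102) and without control 21 (adjusted p = 0.0503). Among the 4 libraries labelled CB1R KO it was the lowest for Sqle, Idi1 and Dhcr7 and the highest for Hmgcs1.

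These 3 values came from 42 checked, and chance sets about 1 in 20 such groups apart.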

How the results depend on the processing

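Of 525 values of single members under the 25 alternatives, 492 kept their direction and their side of the threshold, 6 lost the call, 8 gained one and 19 changed sign. Cyp51 was called against control in both bleomycin groups under all 25. Members called in WT bleomycin against control numbered 1, and 2 by DESeq2 or edgeR on the 2 groups and within the lower-case libraries, 4 with label style as a term, and 1 to 2 with 1 library left out. In CB1R KO against control 4 were called, and 2 to 5 with 1 library left out. Synthesis genes called in WT bleomycin against control numbered 8, and 5 to 8 with 1 library left out, the lowest without control 3, control 24 or WT 5.

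In CB1R KO against WT bleomycin, 1 pathway gene was called, 5 by DESeq2 on all libraries, 8 by DESeq2 on the 2 groups, 0 by both limma settings, with label style as a term and within the lower-case libraries, and 0 to 3 with 1 library left out. Over all genes, 150 were called in that comparison, 562 and 644 by DESeq2 on all libraries and on the 2 groups, 81 and 3 by limma with a pseudocount of 1 and 0.1, 88 by edgeR on the 2 groups, 41 with label style as a term, 6 within the lower-case libraries, and 1 (without CB1R KO 9) to 653 (without CB1R KO 10) with 1 library left out. The causes were not tested.

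The sign changes were in values near 0. In WT bleomycin against control, Idi1 was at -0.0093 with upper-quartile scaling and -0.0567 to 0.0937 with 1 library left out. Lss was at 0.0219 and 0.0248 by limma with a pseudocount of 1 and 0.1, 0.0473 within the lower-case libraries and -0.0892 to 0.0674 with 1 left out. In CB1R KO against WT bleomycin, Fdps was at -0.0777 with label style as a term, -0.1059 within the lower-case libraries and -0.051 to 0.0601 with 1 left out, Sqle was at -0.0169 to 0.1188 with 1 left out, and Srebf1 at -0.0054 within the lower-case libraries. In CB1R KO against control, Lss was at -0.0204 to 0.1348 with 1 left out. No paired analysis was possible because the groups share no replicate numbers.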

Other observations

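Between CB1R KO and WT bleomycin lungs, 62 pathway genes outside synthesis were tested. At an unadjusted p under 0.05, 14 of them were higher and 5 lower. Over all 15315 genes tested, 1218 (7.95%) were higher and 1390 lower at that level. Of the 62, Vldlr alone passed the threshold (edgeR's quasi-likelihood test, adjusted by Benjamini-Hochberg over all genes). The following were chosen after their values were seen. Stard4, a sterol carrier and SREBP2 target, was at 0.35 on the log2 scale (SE 0.12, adjusted p = 0.151). Fasn, the fatty acid synthase, was at 0.45 (SE 0.14, adjusted p = 0.128) and Acaca, the acetyl-CoA carboxylase before it, at 0.38 (SE 0.14, adjusted p = 0.189). Among the lower ones, Ch25h was at -0.78 (SE 0.24, adjusted p = 0.123), Msr1 at -0.58 (SE 0.17, adjusted p = 0.12) and Scarb1 at -0.45 (SE 0.14, adjusted p = 0.133). For each of Stard4, Fasn and Acaca, all but 1 of the 4 libraries labelled CB1R KO lay above every WT bleomycin library.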
